A study of Arabidopsis thaliana with 4 samples.

Results

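The cellulose synthase-like C (CSLC) genes of Arabidopsis thaliana were described in whole plants of the smg7b mutant and of wild type. Members were the probe sets that the platform's gene table pairs with a single gene whose symbol holds CSLC followed by a number. There were 5, each of a different gene, among 22746 plant probe sets on the Affymetrix ATH1 array, of which 13513 carried 1 gene name. The 5 were CSLC4 (AT3G28180, probe set 257071_at), CSLC5 (AT4G31590, 253533_at), CSLC6 (AT3G07330, 259041_at), CSLC8 (AT2G24630, 263793_at) and CSLC12 (AT4G07960, 255175_at). The table writes CSLC4 as CSLC04 and CSLC8 as ATCSLC08. The rule goes by symbol, but the family was selected on its signals in smg7b and wild type, which were already known, so its differences between the genotypes are given as a description, without a test.

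The study asked which mRNAs SMG7b acts on; SMG7b belongs to nonsense-mediated decay, by which cells remove mRNAs whose reading frame ends too early. The smg7b plants carried a T-DNA insertion, from the line SALK_050115 in the Columbia-0 accession, and the wild-type plants were Col-0. Total RNA of whole plants was hybridised to 4 arrays, 2 for each genotype. All plants grew under continuous light at 22 °C and 65% humidity in pots of 5 inches and were taken 17 days after germination. The mutant is represented by 1 insertion line, without a line in which the gene was restored, so effects of the insertion and of other changes in that line cannot be told apart. Whether the 2 replicates of a genotype were separate plants, separate pools or repeat hybridisations is not labelled, and the p-values below cover that spread alone, technical or not. The targeted gene SMG7L (AT1G28260) read 16.7 and 14.4 signal units in smg7b, against 49.7 and 46.8 in wild type, lower in the mutant on both arrays.

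CSLC proteins are glycosyltransferases of the Golgi that build the glucan backbone of xyloglucan, the main hemicellulose of the primary wall in dicot plants. Xylosyltransferases and further enzymes add side chains to that backbone, and the finished polymer is secreted to the wall, where endotransglucosylase/hydrolases (XTH enzymes) cut and rejoin it. CSLC4 was the member first shown to make such a glucan, and plants that lack the whole CSLC family have no detectable xyloglucan.

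A few facts of the arrays bear on every value. Each signal is a microarray intensity on a linear scale, and the authors' scaling left a 2% trimmed mean of 100.01 on each array. Background was taken per array as its brightest Bacillus control probe set, between 6.42 and 9.21 signal units. The Actin control, which compares a probe set at the 3' end of a transcript with one at the 5' end and rises as RNA is shortened, gave 3'/5' ratios of 25.8 and 9.65 in smg7b replicates 1 and 2, against 2.22 and 8.62 in wild-type replicates 1 and 2. The same ratio of the GAPDH control was 2.26 and 1.41 in smg7b, against 0.960 and 1.22 in wild type. Both ratios were higher on the smg7b arrays than on the wild-type arrays, and the arrays of replicate 1 lay farthest apart. The part of RNA quality in the CSLC differences was not tested, and each difference is given also for smg7b replicate 2 against wild-type replicate 2, whose Actin ratios lay closest, and with the log2 Actin ratio as a covariate.

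The plants' tissue makeup could be checked on few markers, since genes without a single-gene probe set in the table were not analysed here. Of 5 root markers, 2 had one. PYK10, a beta-glucosidase abundant in roots, was above background on all arrays, and EXPA7, an expansin of root hairs, was above it on 1 array, wild-type replicate 1. PYK10 read 402 and 513 in smg7b, against 327 and 363 in wild type. EXPA7 read 1.14 and 4.46 in smg7b, against 19.0 and 2.43 in wild type. The summed signal of both, nearly all of it from PYK10, was 403 and 518 in smg7b, against 346 and 365 in wild type. In whole-plant RNA, fewer cells of a type and less RNA per cell cannot be told apart.

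All 5 CSLC genes had a lower mean signal in smg7b than in wild type. The differences ran from 2.11-fold lower for CSLC5 to 1.30-fold lower for CSLC12. For CSLC4, CSLC5, CSLC6 and CSLC8 both smg7b signals lay below both wild-type signals, and these 4 lay above background on every array. That ordering was also found in 31.2% of the 13648 probe sets bright enough to be tested and in 27.1% of all plant probe sets, so it is common on these arrays. CSLC12 was close to background and its genotypes overlapped.

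**Figure D1:**
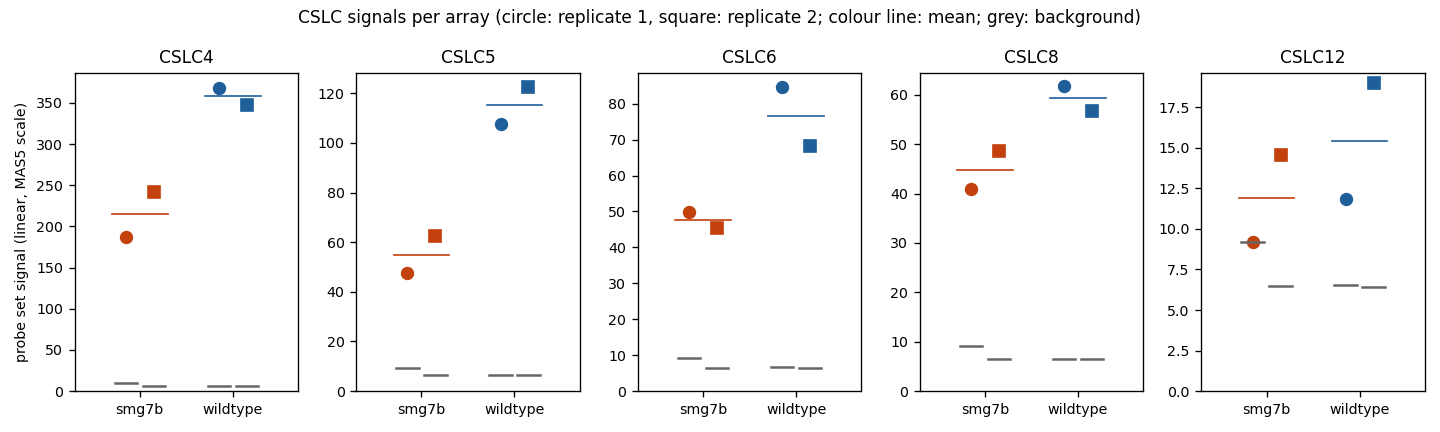
Signals of the 5 CSLC probe sets, 1 panel each, with smg7b left of wild type and a linear signal axis starting at 0. Circles are replicate 1, squares replicate 2, coloured lines the mean of the 2 arrays and grey lines the background of each array; the genotypes are apart in every panel but that of CSLC12.

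CSLC5 showed the largest difference of the family. Its signals were 47.5 and 62.3 in smg7b, against 108 and 123 in wild type. The smg7b arrays were both low and the wild-type arrays both high, with a gap of 0.79 on the log2 scale between the brighter smg7b array and the dimmer wild-type array. The means were 54.9 ± 10.5 in smg7b and 115 ± 10.5 in wild type (SD, n = 2 each). The log2 difference, here always the mean log2 signal in smg7b minus that in wild type, was -1.08 (SE 0.23). Of the tested probe sets, 3.18% had a lower value. The family was selected on this contrast, so such shares, here and for the other members, are a description only. Between the arrays of closest Actin ratio the difference was -0.98, and with the ratio as a covariate it was -1.02 (SE 0.32). The SEs with the covariate, here and below, rest on the spread pooled over probe sets of similar brightness, not on the gene's own.

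CSLC4, the member first tied to glucan synthesis, read 187 and 242 in smg7b, against 369 and 347 in wild type. Both smg7b arrays were low, the first more so, and the wild-type arrays lay close together. The means were 215 ± 38.7 in smg7b and 358 ± 15.4 in wild type (SD, n = 2 each), 1.68-fold lower in smg7b. Its log2 difference was -0.75 (SE 0.20), with 8.90% of tested probe sets lower. It shrank to -0.52 between the arrays of closest Actin ratio and to -0.53 (SE 0.27) with the covariate. This probe set was the farthest from background in the family, with signals at 20.3 to 56.1 times the background of their array.

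CSLC6 was the member in which smg7b replicate 1 was not the lowest array. Its signals were 49.8 and 45.3 in smg7b, against 84.7 and 68.2 in wild type, so that the wild-type arrays differed more from each other than the smg7b arrays did. The means were 47.6 ± 3.13 in smg7b and 76.5 ± 11.7 in wild type (SD, n = 2 each), a 1.60-fold lower level. The log2 difference was -0.68 (SE 0.24), and 10.9% of tested probe sets were lower. It was -0.59 between the arrays of closest Actin ratio and -0.54 (SE 0.35) with the covariate.

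CSLC8 had the smallest difference among the members above background on all arrays. It read 40.9 and 48.6 in smg7b, against 61.7 and 56.8 in wild type. The genotypes did not overlap, but the gap between them was only 0.23 on the log2 scale, against a spread of 0.25 between the 2 smg7b arrays. The means were 44.8 ± 5.43 in smg7b and 59.3 ± 3.48 in wild type (SD, n = 2 each). The log2 difference was -0.41 (SE 0.24), with 22.5% of tested probe sets lower, and it was -0.23 between the arrays of closest Actin ratio and -0.22 (SE 0.37) with the covariate.

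CSLC12 was dim. Its signals were 9.19 and 14.6 in smg7b, against 11.9 and 19.0 in wild type, and the array of smg7b replicate 1 lay just under its background of 9.21. In both genotypes replicate 2 was the brighter array, and the wild-type array of replicate 1 was lower than the smg7b array of replicate 2. The means were 11.9 ± 3.81 in smg7b and 15.4 ± 5.06 in wild type (SD, n = 2 each). The log2 difference of -0.38 was smaller than the spread of 0.67 between the smg7b arrays. It fell below the brightness minimum for testing, a mean log2 signal of 4.32, and so has no fitted error. Between the arrays of closest Actin ratio the difference was -0.38, and with the covariate it was -0.50.

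**Figure D2:**
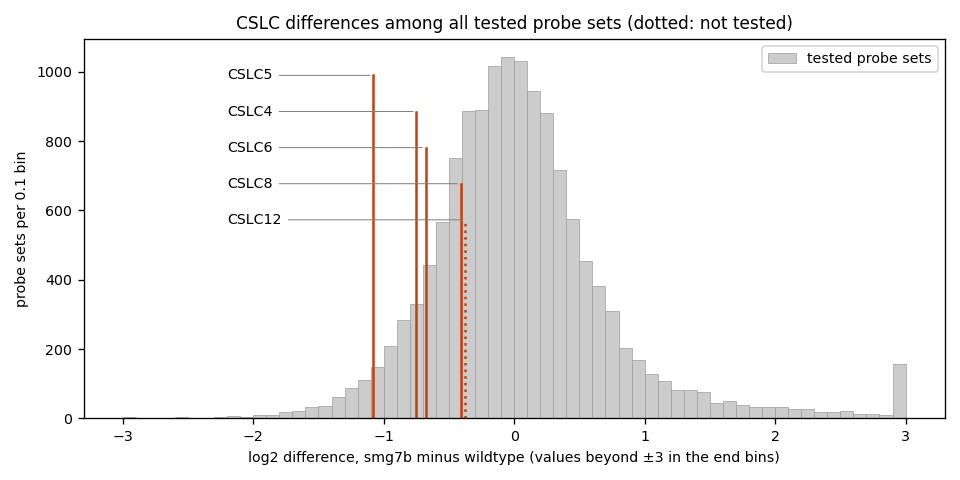
Histogram of the log2 difference, smg7b minus wild type, over the 13648 tested probe sets in bins of 0.1, with each CSLC gene marked by a vertical line (dotted for CSLC12, which was not tested). The members lie left of 0, from -1.08 for CSLC5 to -0.38 for CSLC12.

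Over the 5 members the median log2 difference was -0.68, beside -0.01 over all tested probe sets. Centring each array on its median moved the median of all plant probe sets by over 0.1, to -0.15, beside -0.03 with the authors' scaling. The CSLC values then ran from -1.20 to -0.49.

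The members were also compared with each other. Ratios between 2 members on the same array do not depend on the brightness of that array as a whole, and only their change between genotypes is read here, since signals of different probe sets are not on 1 scale. Of the 6 pairs among CSLC4, CSLC5, CSLC6 and CSLC8, 3 had ratios that did not overlap between the genotypes. The same held for 63.4% of all pairs of tested probe sets, so the CSLC pairs do not stand out, and the 6 pairs share members. The ratio of CSLC5 to CSLC8 was 1.16 and 1.28 in smg7b, against 1.74 and 2.16 in wild type. That of CSLC4 to CSLC8 was 4.57 and 4.98 in smg7b, against 5.97 and 6.11 in wild type. That of CSLC4 to CSLC5 was 3.94 and 3.88 in smg7b, against 3.42 and 2.83 in wild type. In these arrays CSLC5 was lower by more than CSLC4, and CSLC4 by more than CSLC8.

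The 3 pairs with CSLC6 overlapped between the genotypes. The ratio of CSLC4 to CSLC6 was 3.76 and 5.33 in smg7b, against 4.35 and 5.09 in wild type. In order of difference CSLC5 came first, followed by CSLC4, CSLC6, CSLC8 and CSLC12, and the neighbours CSLC4 and CSLC6, like CSLC6 and CSLC8, did not differ beyond their spread. CSLC4 and CSLC6 changed places after quantile or cyclic loess normalization, when smg7b replicate 1 or wild-type replicate 2 was left out, with the Actin covariate and between the arrays of closest Actin ratio. CSLC12 left the last place without smg7b replicate 2 (-0.71, against -0.61 for CSLC6 and -0.53 for CSLC8), without wild-type replicate 1 (-0.72, against -0.71 for CSLC4), with the covariate (-0.50, against -0.22 for CSLC8) and between the arrays of closest Actin ratio (-0.38, against -0.23 for CSLC8).

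**Figure D3:**
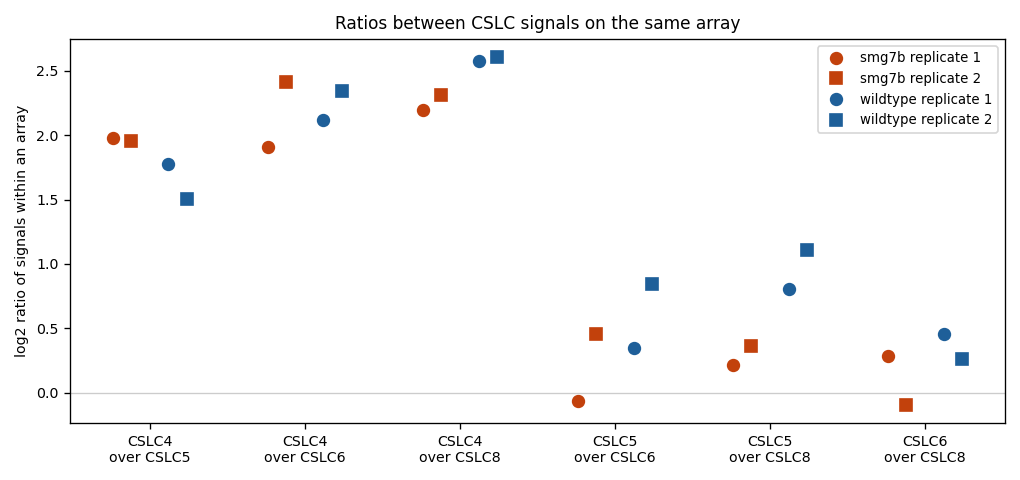
Log2 ratio of 2 CSLC signals on the same array for the 6 pairs of the 4 members above background on every array, with smg7b left of wild type in each pair. The genotypes are apart for CSLC4 over CSLC5, CSLC4 over CSLC8 and CSLC5 over CSLC8, and overlap for the 3 pairs with CSLC6.

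Measured by the root mean square distance of log2 signals over the 4 arrays, after each probe set was centred on its own mean, the most alike members were CSLC4 and CSLC8 (0.18) and the least alike CSLC5 and CSLC8 (0.36). Among 7349 named probe sets outside the family, the closest to CSLC5 were AT3G16530, a lectin gene (0.029), and AT1G09310 (0.036). The closest to CSLC4 were AT2G38610 (0.024) and MED31, a subunit of the Mediator complex that links transcription factors to RNA polymerase (0.026). For CSLC6 they were AT1G67510 (0.017) and AT5G58300 (0.027), both genes of receptor-like kinases with leucine-rich repeats, and for CSLC8 they were AT3G61770 (0.017) and AT5G12850 (0.026). Small distances over 4 arrays, the closest among 7349 candidates, do not show shared regulation, which was not tested.

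The 5 genes lie on 3 chromosomes, CSLC4 and CSLC6 on chromosome 3, CSLC5 and CSLC12 on chromosome 4 and CSLC8 on chromosome 2. Of the 20 nearest named genes, 2 on each side of each member, 9 were bright enough to be tested and 2 passed the threshold in limma, beside 20.3% of all tested probe sets. These were AT3G28200 near CSLC4, which fell by 1.22 on the log2 scale (adjusted p = 0.00303), and AT2G24600 near CSLC8, which rose by 2.11 (adjusted p = 4.38e-05). Both were named after their values were seen.

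Genes of the same polysaccharide's later steps, and of related polymers, were set beside the family in the same limma fit with Benjamini-Hochberg adjustment. The side-chain enzymes of xyloglucan (14 genes), the cellulose synthases (10 genes) and the enzymes of nucleotide sugar supply (21 genes) had no single-gene probe set in the table and were not analysed here. Of 33 XTH genes 10 had one, and 3 of these were bright enough to be tested. XTH32 fell, with 118 and 139 in smg7b against 291 and 272 in wild type, a log2 difference of -1.14 (SE 0.19, adjusted p = 0.0017). XTH27 read 340 and 341 in smg7b against 575 and 466 in wild type, a fall of 0.61 (SE 0.20) just past the threshold (adjusted p = 0.0496) that was lost in 8 of 15 alternatives (adjusted p up to 0.396). XTH16 gave -0.08 (SE 0.21, adjusted p = 0.827). The share of XTH genes called, 2 of 3, stands beside 20.3% of all tested probe sets, and the list's median of -0.61 beside -0.01.

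Relatives in other branches of the cellulose synthase superfamily went both ways. Of 25 listed genes of families A, B, D, E and G, 3 had a probe set and 2 were tested. Both passed the threshold in limma, beside 20.3% of all tested probe sets. CSLA3, of the family that makes mannan backbones, fell 1.76-fold, with 72.7 and 104 in smg7b against 149 and 157 in wild type (log2 difference -0.81, SE 0.23, adjusted p = 0.0253). CSLD2, known from the growth of root hairs, rose 1.64-fold, with 132 and 121 in smg7b against 81.2 and 73.3 in wild type (log2 difference 0.71, SE 0.21, adjusted p = 0.0314). Neither call held without smg7b replicate 1 (CSLA3 at an adjusted p of 0.317, CSLD2 at 0.268), and neither did with the Actin covariate (0.163 for CSLA3, 0.0958 for CSLD2). The call of CSLD2 was also lost without smg7b replicate 2 (adjusted p = 0.118), after median centring (0.0614) and after quantile normalization (0.0535). Between the arrays of closest Actin ratio CSLA3 gave -0.60 and CSLD2 0.72. The genotypes did not overlap for either gene, so that comparison could not have reversed the directions.

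**Figure D4:**
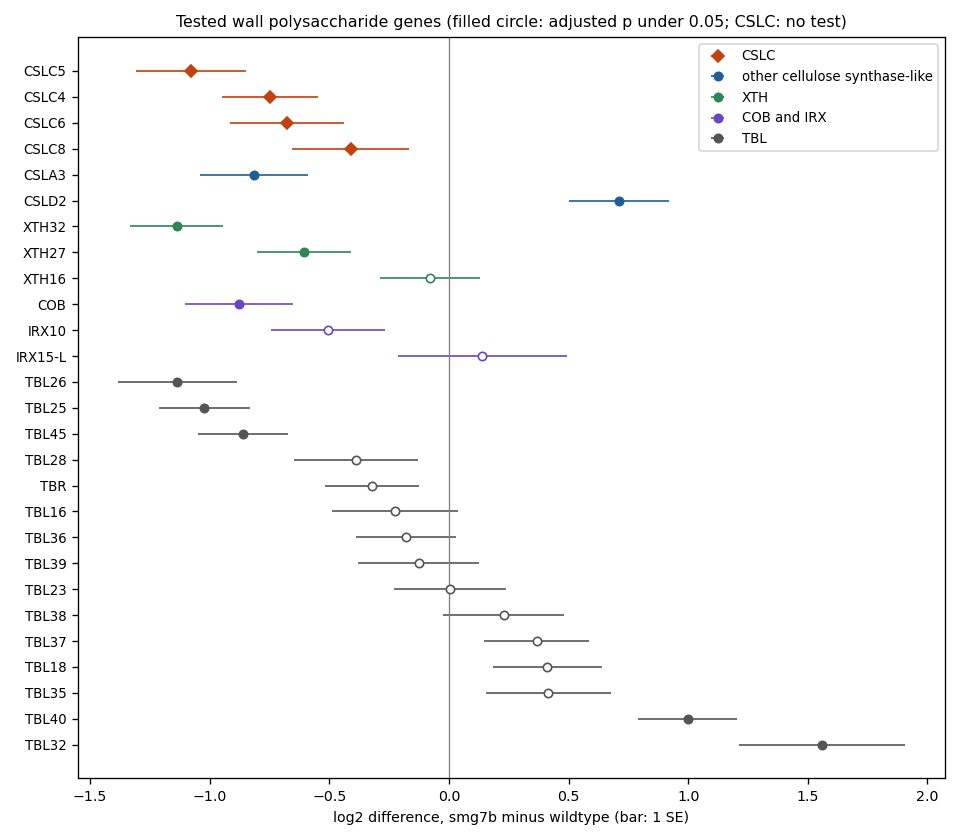
Log2 difference, smg7b minus wild type, with 1 SE, of the 4 CSLC genes bright enough for the fit (diamonds, shown without a test) and of the tested genes of 4 wall lists (circles, filled where the adjusted p was under 0.05). CSLC5, CSLC4, CSLC6 and CSLC8 lie between -1.08 and -0.41, while the other lists hold genes on both sides of 0, except for the 3 XTH genes, which lie below it.

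More wall genes were added by name after the data file had been read. COB, a membrane-anchored protein needed for oriented cellulose deposition, fell, with 292 and 330 in smg7b against 699 and 465 in wild type (log2 difference -0.88, SE 0.23, adjusted p = 0.0182). COB no longer passed when smg7b replicate 1 (adjusted p = 0.206) or smg7b replicate 2 (adjusted p = 0.0787) was left out, nor with the Actin covariate (-0.43, adjusted p = 0.367). IRX10, a xylan backbone enzyme, gave -0.50 (SE 0.24, adjusted p = 0.163), and IRX15-L, also of xylan synthesis, gave 0.14 (SE 0.35, adjusted p = 0.818).

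The TBL family, whose characterised members add acetyl groups to wall polysaccharides, had 24 named genes, of which 15 were tested. In limma 3 fell and 2 rose, set against 20.3% of all tested probe sets, and the list's median was -0.13, set against -0.01. The lowest were TBL26 at -1.14 (adjusted p = 0.00779), TBL25 at -1.02 (adjusted p = 0.0027) and TBL45 at -0.86 (adjusted p = 0.00787). The highest was TBL32 at 1.56 (adjusted p = 0.00859), with 44.0 and 31.5 in smg7b against 14.5 and 11.0 in wild type, followed by TBL40 at 1.00 (adjusted p = 0.00578). None of these calls held without smg7b replicate 1, which leaves 1 smg7b array, but calls were also fewer there over all tested probe sets. That of TBL45 was lost without smg7b replicate 2 too, and those of TBL26 (adjusted p = 0.131) and TBL40 (0.0577) with the Actin covariate.

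The direction of the CSLC differences was the same under each of the 16 alternatives run. Of these, 5 cannot change a difference by construction (2 filters, robust moderation and 2 blocks), and the plot of differences by setting shows the others. For CSLC4, CSLC5, CSLC6 and CSLC8, whose genotypes did not overlap, several of the others could not reverse the direction either. These were leaving out 1 array, the arrays of closest Actin ratio, adding 32 to each signal and raising signals to background. For these genes only median centring, quantile or cyclic loess normalization and the Actin covariate could have reversed it. The size of the CSLC differences was less stable. Leaving out 1 array at a time gave -1.27 to -0.88 for CSLC5, -0.93 to -0.56 for CSLC4, -0.83 to -0.52 for CSLC6, -0.53 to -0.29 for CSLC8 and -0.72 to -0.04 for CSLC12. CSLC12 came near 0 without smg7b replicate 1 (-0.04) and without wild-type replicate 2 (-0.04).

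**Figure D5:**
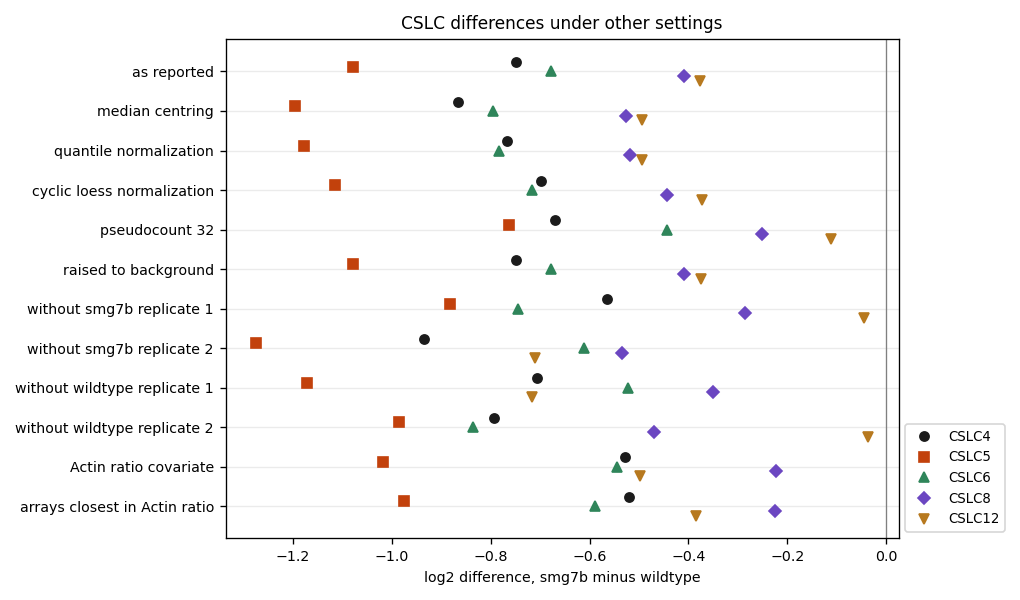
Log2 difference, smg7b minus wild type, of each CSLC gene (1 symbol each) as reported and under 11 other settings, listed down the page. All points lie left of 0, CSLC5 is lowest in each, and CSLC12 comes closest to 0, at -0.04, when smg7b replicate 1 or wild-type replicate 2 is left out.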

How the data were processed

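The deposited values are microarray signals, an intensity per probe set and array on a linear scale, which the authors made with MAS5 and GCOS, per the submitters' processing notes (versions: not given in the sources used here). The values show that each array had been scaled to 1 trimmed mean. The 64 control probe sets were left out, log2 of the signal was taken without a pseudocount, and the brightest probe sets by mean log2, from the 40th percentile up, entered the test (13648). The fit was limma 3.58.1 in R 4.3.3 (lmFit, eBayes with an intensity trend, genotype as the only term, all 4 arrays), with Benjamini-Hochberg adjustment and a threshold of 0.05. The number of arrays limits the precision.

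Genes were named through the platform table and the RefSeq table of TAIR10.1 (13436 probe sets matched). Coordinates are not printed here, and those of the RefSeq table served to order the genes along each chromosome. The CSLC genes and all lists were chosen with earlier results of these data known, and the lists were recalled from general knowledge. Named were all CSLC genes, SMG7L, tested list members (of the longer lists at most 3 highest and 3 lowest) and the 2 nearest profiles of each CSLC gene with genotypes apart. The Actin ratio and the crossed block were added after seeing the data.

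The deviations of the arrays numbered 1 in the 2 genotypes correlated at -0.15 across tested probe sets. Whether the replicate numbers pair the samples is not labelled. The correlation cannot settle it, since the Actin ratio also moved in opposite directions with the replicate number in the 2 genotypes.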

Additional observations from a re-analysis of the deposited data

How the results depend on the processing

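With the main setting limma called 2771 probe sets, and 55.7% of these were higher in smg7b (42.2% after median centring). The count was 1709 with the Actin covariate and between 980 (without smg7b replicate 1) and 4325 (without wild-type replicate 2) when 1 array was left out. In the fits that dropped a wild-type array or used the covariate, limma estimated an infinite prior, so the p-values of unusually variable genes come out too small there. The median CSLC difference was -0.68, from -0.79 to -0.56 with 1 array left out, -0.44 with 32 added to each signal, which pulls dim genes toward 0 by construction, and -0.52 between the arrays of closest Actin ratio.

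Of the XTH genes 2 were called, and 1 with the Actin covariate, cyclic loess, quantile normalization or no filter, with a range of 1 to 2 when 1 array was left out. Of the other cellulose synthase-like genes 2 were called, 1 after median centring or quantile normalization, 0 in limma with the Actin covariate (2 at an unadjusted p under 0.05), and 0 to 2 when 1 array was left out (at the 0, without smg7b replicate 1, also 0 at an unadjusted p under 0.05). The cause of these losses was not tested. Of all 13648 tested probe sets, limma called 2771 (20.3%) in the main setting and 1709 with the Actin covariate. With the replicate number as a block limma called 2488 probe sets, 1 XTH gene (XTH27 was lost, adjusted p = 0.076) and 1 other cellulose synthase-like gene (CSLD2 was lost, adjusted p = 0.0531), and with crossed numbers as a block 3988, 2 and 2. The mean of several probe sets was not run, since each of these genes had 1 probe set. With 2 arrays per genotype, a gene that missed the threshold may still have changed.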
